A study of Mus musculus with 2 samples.

Results

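The mitotic keratin positive tumour cells are the tumour cells of this mouse data set with the highest level of 6 genes of late G2 and mitosis. They were chosen by their own RNA counts, in 3 steps. Barcodes with at least 500 detected genes and at most 10% mitochondrial counts were kept, which left 15853 of 21580 barcodes. A barcode was taken as a tumour cell where Krt8 and Krt18 together reached at least 4 counts per 10,000, while the endothelial genes Cdh5, Egfl7 and Emcn together stayed at or under 5 and the fibroblast genes Dcn and Lum at or under 15. This gave 10154 tumour cells. Members were the top 10% of these, with both libraries ranked together, by the sum of Cenpa, Cdc20, Hmmr, Ccnb1, Ccnb2 and Cenpf per 10,000 counts, called the mitotic score here. The rule selected 1015 cells, 322 of them WT and 693 from the Myct1 knockout. They are compared with the other tumour cells of the same library, 3297 in WT and 5842 in the knockout.

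The study compared tumours of wild type (WT) mice with tumours of Cdh5-cre Myct1 fl/fl mice, called the Myct1 knockout, all on the C57BL/6 background. Cdh5-cre is the spelling in the title of the series, while the label of the sample reads Cdh-cre. In the knockout, the Cdh5 promoter, active in endothelial cells, drives the Cre recombinase that removes the floxed part of Myct1, so the tumour cells described here are not the cells in which it is known to be active. Each genotype was measured as 1 droplet library of 3' RNA counts, pooled from 4 mice, and the tumour tissue had been digested with Collagenase-II, Dispase-II and DNase. The labels name both samples as endothelial cells, but 46.3% of the WT and 81.4% of the knockout cells that passed the quality limits met the keratin rule for tumour cells. Neither the tumour model nor the age of the mice is given in the sources used here. With 1 library per genotype there is no replicate, no test was made, and library, batch and genotype cannot be told apart. Intervals in the text are exact 95% intervals that cover counting error only.

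A dividing cell makes the RNA of its mitotic proteins late in the cell cycle and removes much of it after division. Cyclin B, made from Ccnb1 and Ccnb2, activates the kinase Cdk1 to start mitosis, the kinetochore ties chromosomes to spindle fibres, and the anaphase-promoting complex with its activator Cdc20 then destroys cyclin B so that the cell can divide. Many of these genes share promoter elements: the cell cycle genes homology region (CHR), read by the DREAM and B-MYB-MuvB complexes, and CCAAT boxes, read by NF-Y. RNA counts do not show whether a cell had condensed chromosomes or a spindle. Cells in G2, cells in mitosis and cells that had just divided therefore cannot be told apart here, and the word mitotic refers to the score.

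The promoters of the 6 genes that define the cells, and of Top2a and Cdk1, which split the cells further (described after the gene groups), are shown because they carry the same short elements. Each runs from 150 bases before to 30 bases after the RefSeq start site, 5′ to 3′ along the gene, on build GRCm38.p6. Capitals mark CHR-type letters (TTTGAA or TTTAAA) and CCAAT, each searched on both strands, so that they can appear as TTCAAA and ATTGG. The positions are Cenpa chr5:30666736-30666915 (plus strand), Cdc20 chr4:118437314-118437493 (minus strand), Hmmr chr11:40733408-40733587 (minus strand), Ccnb1 chr13:100786457-100786636 (minus strand), Ccnb2 chr9:70421525-70421704 (minus strand), Cenpf chr1:189688057-189688236 (minus strand), Top2a chr11:99024160-99024339 (minus strand) and Cdk1 chr10:69352883-69353062 (minus strand).
Cenpa: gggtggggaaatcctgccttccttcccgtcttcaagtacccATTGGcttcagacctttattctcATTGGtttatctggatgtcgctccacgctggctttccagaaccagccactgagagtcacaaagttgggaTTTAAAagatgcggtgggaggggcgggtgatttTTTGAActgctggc
Cdc20: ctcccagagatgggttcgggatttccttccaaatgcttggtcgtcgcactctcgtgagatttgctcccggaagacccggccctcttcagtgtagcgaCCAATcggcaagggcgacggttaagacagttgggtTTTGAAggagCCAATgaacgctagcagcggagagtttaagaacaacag
Hmmr: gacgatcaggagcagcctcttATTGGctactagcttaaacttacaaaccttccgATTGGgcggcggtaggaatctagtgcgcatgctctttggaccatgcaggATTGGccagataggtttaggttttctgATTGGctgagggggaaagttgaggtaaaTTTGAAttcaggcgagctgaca
Ccnb1: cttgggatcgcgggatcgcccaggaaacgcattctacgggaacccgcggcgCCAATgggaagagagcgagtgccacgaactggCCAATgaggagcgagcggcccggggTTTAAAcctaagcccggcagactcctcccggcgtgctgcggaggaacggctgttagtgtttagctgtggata
Ccnb2: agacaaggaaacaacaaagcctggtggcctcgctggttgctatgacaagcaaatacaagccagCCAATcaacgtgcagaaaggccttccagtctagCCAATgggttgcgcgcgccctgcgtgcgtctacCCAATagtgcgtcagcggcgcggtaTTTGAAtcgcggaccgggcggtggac
Cenpf: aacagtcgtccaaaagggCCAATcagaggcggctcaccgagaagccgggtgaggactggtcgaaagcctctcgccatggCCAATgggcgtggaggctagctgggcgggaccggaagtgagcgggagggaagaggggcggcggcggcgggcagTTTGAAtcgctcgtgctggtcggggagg
Top2a: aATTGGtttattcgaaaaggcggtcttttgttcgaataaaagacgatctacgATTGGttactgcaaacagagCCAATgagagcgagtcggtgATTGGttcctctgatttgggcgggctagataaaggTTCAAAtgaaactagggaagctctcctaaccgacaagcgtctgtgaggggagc
Cdk1: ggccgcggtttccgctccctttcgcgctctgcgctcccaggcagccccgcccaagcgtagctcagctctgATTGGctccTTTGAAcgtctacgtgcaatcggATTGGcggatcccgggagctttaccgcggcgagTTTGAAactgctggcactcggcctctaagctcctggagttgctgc

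CHR-type letters stood in all 6 promoters of the score genes, as TTTGAA in 5 and as TTTAAA alone in Ccnb1. At least 2 CCAAT boxes stood in all 6, with 4 in Hmmr, 3 in Ccnb2 and 2 in each of the others. Of all 32817 RefSeq promoters cut to the same 180 bases, 16.6% held CHR-type letters, 27.0% held CCAAT and 1.10% held both CHR-type letters and at least 2 CCAAT boxes. In Cenpa, Hmmr, Ccnb2 and Cenpf the TTTGAA lay 3 to 17 bases after the start site, in Cdc20 it lay 18 bases before it, and the TTTAAA of Ccnb1 lay 42 bases before it. Among other genes of G2 and mitosis (127 of 164 genes matched, with 144 promoters), 49.3% held CHR-type letters, 56.3% held CCAAT and 20.8% held both CHR-type letters and at least 2 CCAAT boxes. For genes of DNA replication and S phase (46 of 59 matched, 55 promoters) the share with CHR-type letters was 14.6%, close to that of all promoters, while 52.7% held CCAAT. Both CHR-type letters and at least 2 CCAAT boxes stood in 9.09% of these S-phase promoters, above the 1.10% of all promoters. A match of letters describes the sequence and is not a measured binding site.

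The 2 tables held 115519153 WT and 145331950 knockout counts of unique molecules (UMIs), with a median of 8725.5 and 12921 per barcode, and 218 barcode sequences occurred in both libraries (6 WT and 8 knockout members). Each table lists only genes that reached 4 UMIs in some barcode, and 9125 symbols were in both. Myct1, the targeted gene, had 58 UMIs in the 2666 WT cells of the fibroblast gate (more than 15 counts of Dcn and Lum and fewer than 4 of the keratins per 10,000), 14 in other WT tumour cells and 0 in WT mitotic cells, which allows a level of up to 0.503 counts per 1000000 counts (CPM; 3 counts of the summed cells). It is not listed in the knockout table. In tumour cells it therefore checks no label.

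Of the WT tumour cells 8.90% (interval 7.99 to 9.87) and of the knockout tumour cells 10.6% (9.87 to 11.4) were members. Since the threshold was set over both libraries together, the shares describe how the top 10% divided between them. The threshold lay at 4.755 score counts per 10,000. The lowest members stood at 4.773 in WT and 4.755 in the knockout, the highest non-members at 4.728 and 4.753, and 46 WT and 100 knockout cells lay within 0.5 of the threshold. The score ran up to 66.7 in WT and 62.1 in the knockout, with medians of 10.1 in both. Most other tumour cells had no UMI of any score gene (75.8% in WT, 72.3% in the knockout).

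The member share was highest in the shallowest and the deepest cells. Why it was high in the deepest cells was not tested. Members had a median of 16861 UMIs in WT and 19663 in the knockout, against 15606 and 16378 in the other tumour cells. In WT the member share was 14.8% under 5000 UMIs, 7.47% from 5000 to 10,000, 5.45% from 10,000 to 20,000 and 12.2% above, and the knockout gave 14.5%, 7.29%, 7.87% and 15.2%. Under 5000 UMIs a handful of molecules passes the threshold: 65 WT members (20.2%) and 43 knockout members (6.20%) rested on fewer than 5 score UMIs. When every cell was thinned to 5000 UMIs and shallower cells were left out, 10.3% of WT and 13.2% of knockout tumour cells were members, both above the intended share because many cells tie at the threshold. When the top 10% was taken within each library instead, 362 WT and 654 knockout cells were members.

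The 6 score genes chose the cells, so their levels are a description. Cenpa, the histone H3 variant of centromeres, stood at 276 CPM in WT and 326 CPM in knockout mitotic cells, against 11.4 and 14.4 in other tumour cells. Cenpf, a kinetochore protein that peaks in G2 and mitosis, stood at 308.5 and 241 CPM against 6.95 and 9.84. These 2 genes supplied more of the score than the others, with 23.1% of its UMIs from Cenpa and 25.8% from Cenpf in WT, and 28.1% and 20.8% in the knockout. Hmmr, a spindle-binding protein, stood at 177 and 171 CPM against 2.98 and 4.76, which is the widest ratio of the 6 in both libraries (log2 5.89 and 5.17). Ccnb1 stood at 155 and 143 CPM against 3.43 and 4.48. Ccnb2 stood at 135.5 and 145 CPM against 5.15 and 5.55, and Cdc20 at 142 and 134 CPM against 4.07 and 5.53.

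All 6 score genes were detected together in 133 WT and 316 knockout members, while 34 and 58 members showed only 1 of them. The share of members with at least 1 UMI ran from 62.4% (Ccnb1) to 86.0% (Cenpa) in WT and from 70.4% to 88.7% for the same genes in the knockout. Fibroblast-gate cells of the WT library, with a median of 9032 UMIs, had a UMI of Cenpa in 4.73% and of Ccnb1 in 2.25% of cells. With cells thinned to 5000 UMIs, Cenpa was found in 67.6% of WT and 72.4% of knockout members and Ccnb1 in 39.8% and 39.3%, against 3.14% and 1.52% of WT fibroblast-gate cells.

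The keratins of the rule were present throughout. Krt8 stood at 987 CPM in WT and 998 CPM in knockout mitotic cells, against 753 and 786 in the other tumour cells and 10.6 in WT fibroblast-gate cells. Krt18 stood at 831 and 1154 CPM against 697 and 904. Other epithelial genes were scarce. The adhesion protein gene Epcam had 0 UMIs in WT and 2 in knockout members, and Cdh1, which encodes E-cadherin, stood at 2.85 and 0.830 CPM. Vim, the intermediate filament gene of mesenchymal cells, stood at 2773 and 3258 CPM in the same cells. Mitotic and other tumour cells were alike in this: Vim stood at 2332 and 2768 CPM and Cdh1 at 2.96 and 0.893 CPM in the others. The 2 keratins and the 6 score genes chose the cells and so do not check the label, and the epithelial genes outside the rule, Epcam and Cdh1, were at or near 0.

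Endothelial and macrophage markers were low in the members, while fibroblast markers in WT were not. The tumour rule itself limited Cdh5, Egfl7 and Emcn of the endothelial and Dcn and Lum of the fibroblast markers. Their low levels therefore do not check the label. All 6 endothelial markers were detected at a summed 12.3 CPM in WT and 16.2 CPM in the knockout, against 17.6 and 16.4 in other tumour cells. Macrophage markers summed to 7.38 and 7.67 CPM, with 2 of the 5 listed markers at 0 in the members of both libraries. Fibroblast markers (6 of 6 listed) summed to 308.5 CPM in WT mitotic cells against 220 in other WT tumour cells, and to 42.2 against 43.8 in the knockout. Without barcodes of a simulated-doublet score above 0.3 the WT sums were 283 and 143 CPM. At least 1 UMI of a fibroblast marker was found in 64.3% of WT but 8.95% of knockout mitotic cells, and in 63.4% and 9.79% of the other tumour cells. Mural markers (5 of 5) summed to 81.4 against 37.0 CPM in WT and 31.3 against 35.3 CPM in the knockout. Only 1 WT and 3 knockout members had a simulated-doublet score above 0.3.

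Over all genes that reached 20 CPM in 1 class, 709 of 5869 (12.1%) were at least 1.5-fold higher and 218 (3.71%) at least 1.5-fold lower in WT mitotic cells, with intervals that excluded no difference. Scaled by the median gene ratio in place of total counts, WT gave 500 higher and 345 lower. The knockout gave 293 of 5115 (5.73%) higher and 114 (2.23%) lower. In both libraries together, 268 of 4985 genes (5.38%) were higher and 48 (0.963%) lower. Only Col3a1, a fibrillar collagen of fibroblasts, was higher in 1 library and lower in the other (206 against 125 CPM in WT, 43.6 against 73.3 in the knockout). Across the 4985 genes the log2 ratios of the libraries correlated with r of 0.93, and with 0.83 over the 4822 genes outside the cell cycle lists. Both values describe genes, which are not independent, and in both libraries the same score chose the cells. Because the cells were chosen by co-expressed genes, nothing is read from these counts.

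The other genes of G2 and mitosis moved with the score. Of 134 measured in WT, 118 were higher in mitotic cells and none was lower, and the median log2 ratio was 2.69 against 0.11 over all tested genes. In the knockout 102 of 122 were higher and none was lower, and the median was 2.102 against 0.04. Another 20 genes of these lists in WT and 30 in the knockout stayed under 20 CPM in both classes. Most measured genes reached that level only in the mitotic cells (79 in WT, 67 in the knockout), which fixes their direction. Among the 55 that reached it in the other tumour cells too, 39 were higher in WT with a median of 1.26, and 35 of 55 in the knockout with a median of 1.101. The counts for single lists that follow are limited in the same way, and each is given with the genes that reached 20 CPM in the other tumour cells too. The share of all genes that were higher under this narrower limit was not computed. These narrower counts therefore have no background beside them, and the small ones are given as a description.

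**Figure D1:**
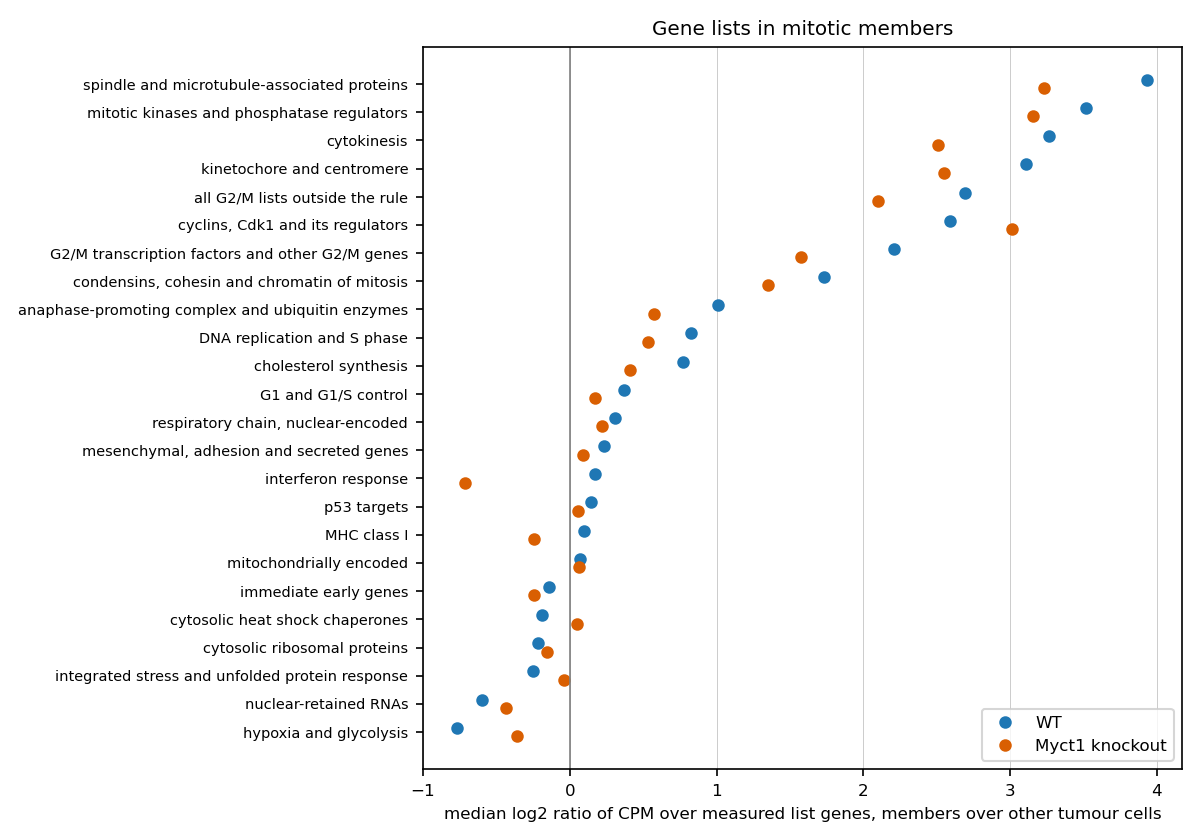
Median log2 ratio of CPM in mitotic over other tumour cells for each gene list with at least 5 measured genes in both libraries, without the score genes (y axis), with blue points for WT and orange points for the Myct1 knockout. Spindle genes have medians of 3.94 in WT and 3.23 in the knockout, mostly from genes that reach 20 CPM only in mitotic cells, and hypoxia genes lie left of 0 in both libraries (-0.77 and -0.36).

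Among regulators of Cdk1, 8 of 8 measured genes were higher in WT and 6 of 6 in the knockout, and 3 of 3 in each library among those at 20 CPM in the other tumour cells. Cdkn3, a phosphatase that acts on Cdk1, stood at 42.1 CPM in WT mitotic cells against 1.34 in the others, and at 52.3 against 1.67 in the knockout, a log2 ratio of 4.98 (4.59 to 5.38) and 4.97 (4.73 to 5.22). It headed the genes higher in both libraries by the smaller interval bound. Cdc25c, the phosphatase that switches Cdk1 on at mitotic entry, stood at 33.1 against 0.872 CPM in WT and 29.0 against 1.03 CPM in the knockout. Ccna2, the cyclin A of S and G2 phase, stood at 134 against 5.79 and 100 against 7.88 CPM. Cdk1 itself stood at 173 against 22.5 CPM and 178 against 34.7 CPM, a narrower ratio (log2 2.94 and 2.36) with more of it in the other tumour cells than of the genes above.

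Of the mitotic kinases and their regulators 11 of 13 measured genes were higher in WT and 9 of 11 in the knockout, all of them genes that reached 20 CPM only in mitotic cells. Of the 2 that reached it in other tumour cells none was higher in either library (medians 0.19 and 0.11). Plk1, which drives centrosome maturation and mitotic entry, stood at 44.3 against 1.45 CPM in WT and 31.0 against 1.32 CPM in the knockout (log2 4.93 and 4.56). Nek2, a kinase of centrosome separation, stood at 40.1 against 1.51 CPM and 20.8 against 1.35 CPM. The spindle checkpoint kinases Bub1 and Ttk stood at 49.0 and 36.9 CPM in WT mitotic cells and at 36.8 and 25.4 CPM in the knockout, against 3.25 and 2.36 CPM in other WT and 2.84 and 2.72 CPM in other knockout tumour cells.

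The chromosomal passenger complex, which corrects spindle attachments and steers cytokinesis, was higher in 3 of 3 measured genes besides its kinase Aurkb, of which only Birc5 in the knockout reached 20 CPM in other tumour cells. Birc5, its subunit survivin, stood at 299 against 16.8 CPM in WT and 368 against 27.7 CPM in the knockout (log2 4.15 and 3.73). Over single tumour cells Birc5 was also the gene whose level went most closely with the mitotic score (mean r 0.72 over 3619 WT and 6535 knockout cells), ahead of Ube2c (0.61), Cenpe (0.60), Ccna2 (0.60) and Tpx2 (0.60). These correlations share the score's cells and depth and are given as a description. Cdca8, the subunit borealin, stood at 95.8 against 6.51 CPM and 104 against 10.4 CPM, and the scaffold Incenp at 49.8 against 7.73 CPM and 31.9 against 6.87 CPM.

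Kinetochore and centromere genes were higher in 19 of 20 measured in each library, and in 3 of the 4 at 20 CPM in other tumour cells. Cenpe, the kinesin that pulls chromosomes to the spindle equator, stood at 114 against 4.01 CPM in WT and 85.6 against 4.26 CPM in the knockout. Nuf2 and Ndc80, partners in the complex that grips microtubules, stood at 41.3 and 35.4 CPM in WT mitotic cells and at 35.5 and 25.7 CPM in the knockout, each against fewer than 4 CPM in other tumour cells.

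Spindle and microtubule genes were higher in 29 of 31 measured in WT and 26 of 28 in the knockout, and in 9 of the 11 at 20 CPM in other tumour cells in each library (medians 1.38 and 1.33). Kif2c, a kinesin that takes microtubules apart, stood at 44.3 against 1.03 CPM in WT and 35.5 against 1.26 CPM in the knockout (log2 5.43 and 4.82), which is the widest ratio in WT among the 25 named genes outside the score. Kif20a, a kinesin of the central spindle, stood at 93.4 against 2.98 CPM and 58.7 against 2.27 CPM. Nusap1, which bundles spindle fibres, stood at 117 CPM in both libraries, against 4.22 and 6.01 CPM. Aspm, a spindle pole protein, stood at 65.1 against 2.11 CPM and 35.9 against 2.04 CPM. Tpx2, which activates Aurora A on the spindle, stood at 139 against 7.53 CPM and 109 against 8.24 CPM.

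Chromatin genes of mitosis were higher in 22 of 26 measured in WT and 20 of 24 in the knockout, and in 14 of the 18 at 20 CPM in other tumour cells in each library (medians 1.59 and 1.18). Mki67, whose protein Ki-67 coats mitotic chromosomes, stood at 151 against 6.06 CPM in WT and 76.7 against 6.54 CPM in the knockout (log2 4.64 and 3.55). Top2a, the enzyme that untangles sister chromosomes, stood at 437 against 35.9 CPM and 296 against 41.9 CPM. The condensin subunit gene Ncapg stood at 53.4 against 4.28 CPM and 34.6 against 3.93 CPM. Hmgb2, a chromatin protein, was the most abundant of those named, at 770 against 110 CPM and 680 against 121 CPM.

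Genes of protein destruction were mixed. Ube2c, the ubiquitin enzyme that works with the anaphase-promoting complex, stood at 333 against 12.3 CPM in WT and 432 against 19.3 CPM in the knockout (log2 4.76 and 4.49), and its partner enzyme Ube2s at 414 against 139 CPM and 491 against 177 CPM. The core subunits were less uneven: Anapc5 stood at 123 against 85.1 CPM and 80.3 against 65.4 CPM, which was not counted as higher in either library. Over that list 6 of 10 genes were higher in WT and 4 of 9 in the knockout, with 3 of 7 and 1 of 6 among those at 20 CPM in other tumour cells. Cytokinesis genes were higher in 6 of 8 and 5 of 8 (2 of 4 and 1 of 4 by that limit), among them Racgap1, a regulator of the cleavage furrow, at 156 against 11.8 CPM and 84.5 against 10.1 CPM. Foxm1, a transcription factor of the G2/M programme, stood at 67.9 against 6.97 CPM and 33.7 against 4.50 CPM.

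**Figure D2:**
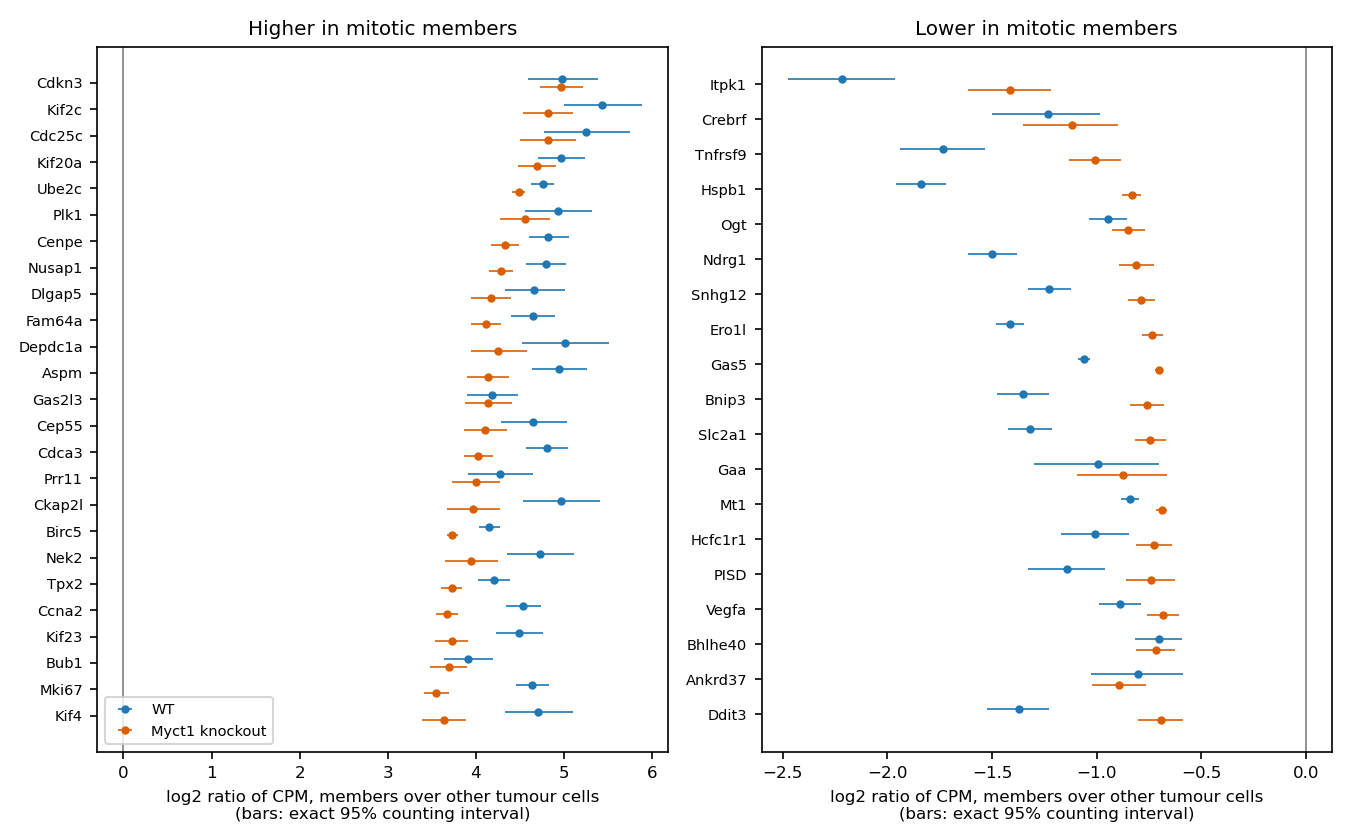
Log2 ratio of CPM in mitotic over other tumour cells (x axis) with its exact 95% counting interval, for the 25 named genes higher (left) and 19 of the 20 named genes lower (right; 1 is not reported here) in both libraries, WT in blue and the Myct1 knockout in orange. Cdkn3 heads the left panel at 4.98 and 4.97, and Itpk1 heads the right panel at -2.21 and -1.41.

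Promoters could be matched for 19 of the 25 named genes that were higher (20 promoters) and 15 of the 20 that were lower (19 promoters). CHR-type letters stood in 14 of the 20 and in 1 of the 19, and CCAAT in 15 and in 7. Kif2c held CHR-type letters and no CCAAT, as did both promoters of Cep55, while Nek2, Bub1, Cdca3 and Gas2l3 held CCAAT and no CHR-type letters. Birc5 and Nusap1 held neither in these 180 bases.

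Genes of DNA replication and S phase were higher in part. Of 43 measured in WT 32 were higher, with a median log2 ratio of 0.83, and of 36 in the knockout 17, with a median of 0.53. None was lower. Of those that reached 20 CPM in the other tumour cells too, 16 of 27 were higher in WT (median 0.68) and 8 of 25 in the knockout (median 0.43). Rrm1, a subunit of the enzyme that makes deoxynucleotides, stood at 84.2 against 21.5 CPM in WT and 46.7 against 18.7 CPM in the knockout. Uhrf1, which carries DNA methylation through replication, stood at 67.9 against 20.4 CPM and 31.2 against 15.6 CPM. When the tumour cells were ranked by S-phase genes instead, 27.3% of WT and 20.2% of knockout mitotic cells fell in the top 10%, against 8.80% and 8.51% of the others. With cells thinned to 5000 UMIs these shares were 28.1% and 24.7% against 7.89% and 9.33%.

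Genes that control G1 were mostly level: 4 of 10 were higher in WT and 1 of 7 in the knockout, or 1 of 7 and 0 of 5 among those at 20 CPM in other tumour cells. Cdkn2d, an inhibitor of the G1 kinases Cdk4 and Cdk6, was the one higher in both, at 51.5 against 11.1 CPM and 50.5 against 19.8 CPM. Ccnd1, the cyclin D1 of G1, stood at 640 against 404 CPM in WT and 488 against 347 CPM in the knockout, and Cdkn1a, which encodes p21, at 387 against 286 CPM and 361 against 327 CPM.

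Along the mitotic score the groups did not peak together. Cells were put in 6 bands, from no score UMI (2500 WT and 4225 knockout cells) to the members above the members' own median score (161 WT and 347 knockout cells). The other G2/M genes summed to 7610 CPM in the lowest and 24717 CPM in the highest band in WT, and to 8296 and 23674 CPM in the knockout. S-phase genes summed highest in the band just under the member threshold, at 3623 CPM in WT and 3079 CPM in the knockout, and to 2482 and 2043 CPM in the highest band. Pcna, the sliding clamp of DNA polymerase, was also highest just under the threshold. It stood at 35.6 CPM in the lowest band, 99.9 just under the threshold and 42.9 in the highest in WT. In the knockout these were 26.4, 59.9 and 26.8 CPM. These sums rise or fall with a score made from the same cells and are given as a description.

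**Figure D3:**
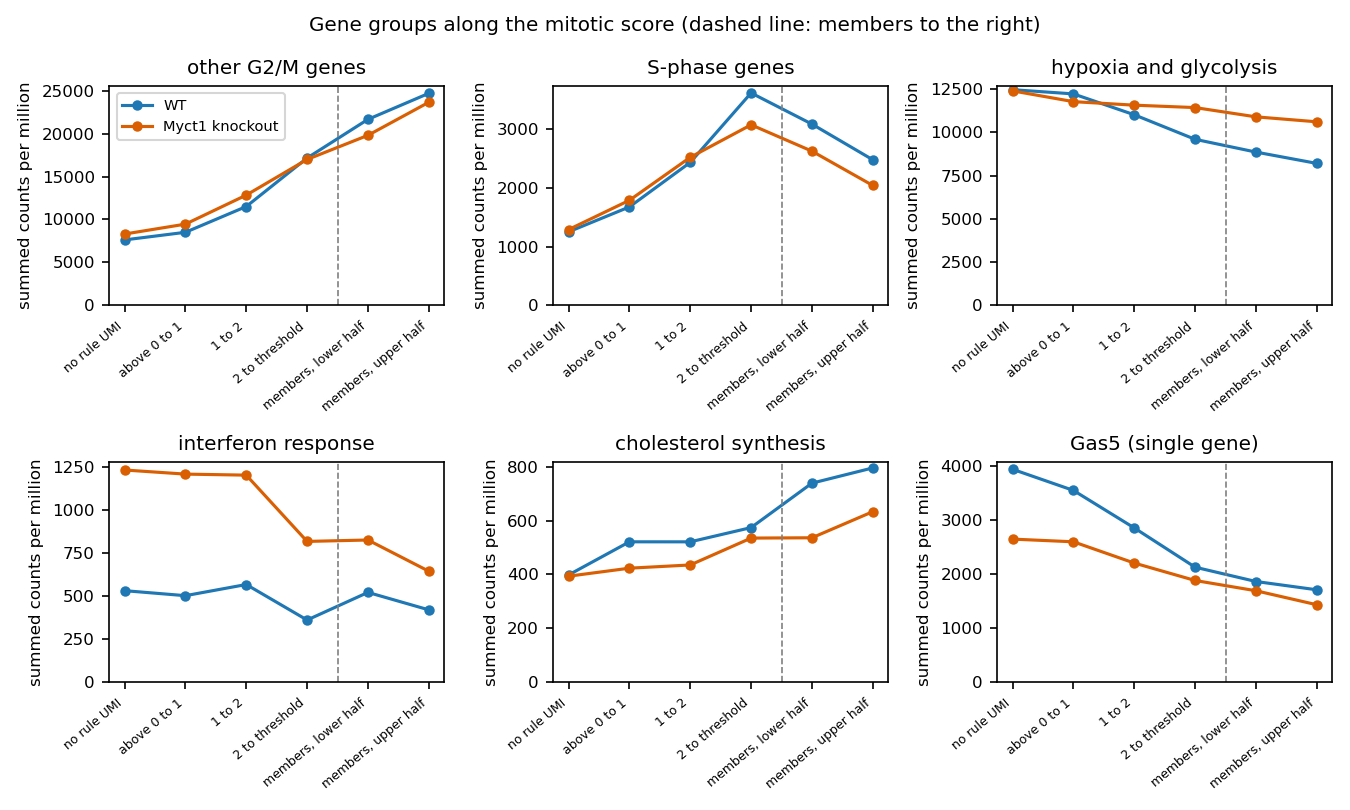
Summed CPM of 5 gene groups and of Gas5 (y axis, from 0) in 6 bands of tumour cells ordered by mitotic score (x axis), WT in blue and the Myct1 knockout in orange, with members to the right of the dashed line. The other G2/M genes are highest in the last band (24717 and 23674 CPM), while S-phase genes are highest just left of the line (3623 and 3079 CPM).

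Of 27 measured genes of hypoxia and glycolysis, 16 were lower in WT mitotic cells and 7 in the knockout and none was higher, with median log2 ratios of -0.77 and -0.36. All 27 reached 20 CPM in the other tumour cells. Ndrg1, a stress gene induced by low oxygen, stood at 107 against 301 CPM in WT and 89.0 against 156 CPM in the knockout. Slc2a1, the glucose transporter GLUT1, stood at 131 against 326 CPM and 113 against 189 CPM. Vegfa, the growth factor of blood vessels, stood at 148 against 274 CPM and 106 against 170 CPM, and Bnip3, a mitophagy receptor, at 93.6 against 239 CPM and 91.5 against 155 CPM. Ero1l, an oxidase of protein folding, stood at 308 against 820 CPM and 226 against 376 CPM. Of the mitotic cells 3.11% in WT and 5.77% in the knockout were in the top 10% of tumour cells by hypoxia genes, against 11.8% and 9.88% of the others, and 1.56% and 5.55% against 12.1% and 10.5% after thinning.

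Itpk1, an inositol phosphate kinase, had the lowest ratio of the 20 named lower genes in both libraries, at 21.8 against 101 CPM in WT and 15.3 against 40.7 CPM in the knockout (log2 -2.21 and -1.41). Gas5, a non-coding RNA that hosts small nucleolar RNAs, was the most abundant of them, at 1785 against 3724 CPM and 1568 against 2551 CPM. Over single cells it had the lowest mean r with the score (-0.31, from -0.35 in WT and -0.27 in the knockout, where Rpl38 was lower at -0.30). Snhg12, another such host gene, stood at 139 against 325 CPM and 140 against 242 CPM. Malat1, a nuclear non-coding RNA, was lower in WT at 6048 against 9170 CPM, and stood at 6063 against 7935 CPM in the knockout, where it did not reach 1.5-fold. Of the 7 measured nuclear-retained RNAs 4 were lower in WT and 2 in the knockout. Of 41 cytosolic ribosomal protein genes none was counted in either direction, with medians of -0.22 and -0.15.

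Stress genes were lower in part. Ddit3, the transcription factor CHOP of the integrated stress response, stood at 66.1 against 171 CPM in WT and 52.5 against 85.0 CPM in the knockout. Of its list 3 of 18 genes were lower in WT and 3 of 17 in the knockout. Hspb1, a small heat shock protein, stood at 100 against 358 CPM and 313 against 557 CPM. Hspa1b and Hsph1, inducible chaperones, were lower in WT mitotic cells and level in the knockout: Hspa1b stood at 187 against 372 CPM in WT but 276 against 269 CPM in the knockout, and Hsph1 at 54.2 against 105 CPM in WT but 101 against 98.0 CPM in the knockout. Over the list 4 of 12 were lower in WT and 1 of 12 in the knockout. Mt1, a metallothionein, stood at 813 against 1454 CPM and 835 against 1346 CPM.

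Of 13 measured genes of the cholesterol list 12 were higher in WT mitotic cells, with a median of 0.77, and of 11 in the knockout 3 were, with a median of 0.41. At 20 CPM in other tumour cells too, these were 8 of 9 and 3 of 9. Fdps, the synthase of farnesyl diphosphate, stood at 76.0 against 31.0 CPM in WT and 110 against 61.8 CPM in the knockout, and Cyp51, a demethylase of lanosterol, at 49.3 against 23.2 CPM and 34.3 against 22.8 CPM. Of the mitotic cells 21.7% in WT and 16.3% in the knockout were in the top 10% by these genes, against 8.58% and 9.40% of the others. The summed level grew with the score, from 398 CPM in cells with no score UMI to 797 CPM in the highest band in WT and from 393 to 633 CPM in the knockout.

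Of 34 nuclear-encoded genes of the respiratory chain 5 were higher in WT, among them Sdhb of complex II at 134 against 76.5 CPM, and 0 in the knockout, where Sdhb stood at 166 against 126 CPM. Of all tested genes 12.1% were higher in WT. That share includes genes at 20 CPM only in mitotic cells, while all 34 reached this level in the other tumour cells too. Il24, a cytokine of the IL-10 family, was higher in both libraries, at 273 against 84.6 CPM in WT and 227 against 102 CPM in the knockout. Lgals1, which encodes galectin-1, was higher in WT at 6599 against 3479 CPM, and stood at 6554 against 4373 CPM in the knockout, just short of 1.5-fold.

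Interferon genes were lower in part. In the knockout 11 of 19 measured genes were lower in mitotic cells and none was higher (median -0.72). In WT 7 genes were measured, 1 was lower and none higher, and the median was 0.17. The sign of that median rests on 2 genes that reached 20 CPM only in mitotic cells: over the other 5 it was -0.23. Summed over the list, mitotic cells stood at 471 against 517 CPM in WT and 742 against 1195 CPM in the knockout. Isg15, a ubiquitin-like protein induced by interferon, stood at 68.3 against 138 CPM in the knockout and at 26.5 against 35.0 CPM in WT. Cxcl10, a chemokine that draws T cells, stood at 61.2 against 86.8 CPM in the knockout and 15.1 against 10.2 CPM in WT. Of the other tumour cells 13.7% in the knockout and 4.40% in WT were in the top 10% by interferon genes. Of the mitotic cells these shares were 8.37% and 3.11%. After thinning, 14.49% of the other tumour cells in the knockout and 5.005% in WT were in it, against 7.55% and 6.25% of the mitotic cells. The direction thus held in the knockout and turned in WT, where the intervals of the shares overlapped with and without thinning. Interferon genes summed to 531 CPM in WT and 1235 CPM in knockout tumour cells with no score UMI, and fewer of them reached 20 CPM in WT.

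Within the mitotic cells, knockout over WT, 134 of 5743 genes (2.33%) were at least 1.5-fold higher and 1257 (21.9%) at least 1.5-fold lower. The median gene was lower in the knockout by a log2 ratio of -0.26, and by -0.21 in the other tumour cells, and the split moved with the scaling: relative to the median gene 646 were higher and 312 lower. The score genes did not differ by 1.5-fold in any of the 6, on either scale. Of 135 other G2/M genes 0 were higher and 41 lower by total counts, and 5 were higher and 16 lower relative to the median gene, where the list median was -0.11. Mki67 was lower, at 76.7 CPM in knockout against 151 CPM in WT mitotic cells (log2 -0.98), while Ube2c stood at 432 against 333 CPM. Heat shock chaperones went the other way, with 5 of 12 higher by total counts and 8 relative to the median gene. Interferon genes did so too, with 6 of 9 and 7. The other tumour cells went the same way by total counts, with 3 of 12 chaperones and 16 of 19 interferon genes higher. Isg15 stood at 68.3 CPM in knockout and 26.5 CPM in WT mitotic cells, and Hspb1 at 313 and 100 CPM.

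Whether the genotype ratio of mitotic cells differed from that of other tumour cells was compared gene by gene: 53 of 5991 genes (0.885%) had a ratio at least 1.5-fold higher and 219 (3.66%) at least 1.5-fold lower in mitotic cells, with intervals that did not overlap. The largest of these rested on few cells. Haemoglobin Hba-a1 stood at 0.671 CPM in WT and 0.415 CPM in knockout mitotic cells. In the other tumour cells it stood at 29.2 CPM in WT, where 1509 UMIs lay in 38 cells, and 0.301 CPM in the knockout. In the opposite direction, 171 of the 184 Lepr UMIs of WT mitotic cells lay in 1 cell, as did 231 of 239 for the chemokine Ccl5 and 121 of 140 for Rgs5, a marker of pericytes. For Ccl2, a chemokine that draws monocytes, the largest cell held 140 of 357 UMIs, and for the bone matrix gene Dmp1 it held 78 of 181. Fibroblast genes were among these as well, such as Postn at 73.1 CPM in WT and 2.83 CPM in knockout mitotic cells, where the largest WT cell held 162 of 436 UMIs. Of the fibroblast markers 4 of 4 measured were lower in knockout than in WT mitotic cells, and the part of RNA from other cells in these values was not tested.

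Hspa1b and Car9 did not rest on a few cells. Hspa1b was found in 158 of 322 WT and 526 of 693 knockout mitotic cells, and Car9, a carbonic anhydrase induced by low oxygen, in 83 and 285. Car9 stood at 36.4 against 92.4 CPM in WT and 58.4 against 71.4 CPM in the knockout, mitotic against other tumour cells. Prdm1, which encodes the repressor BLIMP-1, stood at 4.70 against 27.4 CPM in WT and 6.29 against 10.1 CPM in the knockout, but only 17 WT and 55 knockout mitotic cells had a UMI of it.

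The mitotic cells were not uniform, and Top2a and Cdk1 divided them. Among members with at least 10,000 UMIs (214 WT, 583 knockout), the sum of Top2a and Cdk1 per 10,000 UMIs fell into a low and a high range, and a split at 4 was chosen after these values were seen. In WT 101 cells (47.2%) were high and 113 low, and in the knockout 255 (43.7%) were high and 328 low. Between 2 and 6 lay 15 cells in WT and 89 in the knockout. When the cells were thinned to 10,000 UMIs the gap was less clear in WT. There 21 cells lay from 2 to 4 and 11 from 4 to 6, against 9 and 6 before. In the knockout 56 and 42 cells lay there, against 42 and 47 before. Of the other tumour cells of that depth 3.004% in WT and 4.28% in the knockout reached the split. High cells had more UMIs than low cells (medians 31153 and 17891 in WT, 26132 and 19137 in the knockout) and a lower score (medians 8.83 and 12.1, 9.14 and 10.7).

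**Figure D4:**
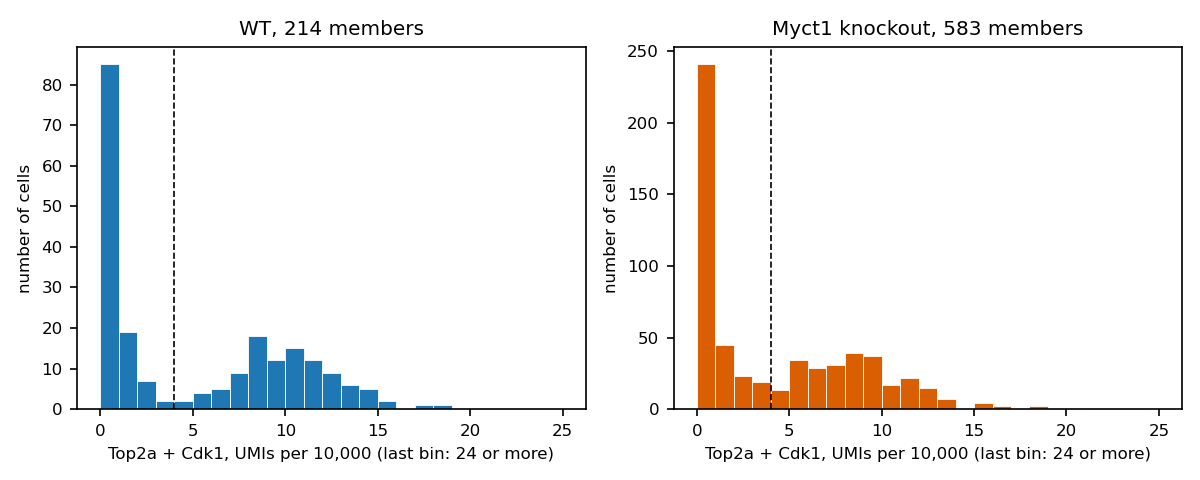
Number of mitotic cells with at least 10,000 UMIs (y axis) by the sum of Top2a and Cdk1 per 10,000 UMIs (x axis), in WT (left, 214 cells) and the Myct1 knockout (right, 583 cells), with the split at 4 as a dashed line. Most cells stand near 0 or well above the line, and 15 WT and 89 knockout cells lie between 2 and 6. The cells are not thinned to equal depth.

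Several mitotic genes and the S-phase genes were higher in the high cells. The lists of G2 and mitosis, without the score genes, Top2a and Cdk1, each summed higher in high cells of both libraries. Spindle genes summed to 6997 CPM in high and 3003 CPM in low WT cells, and 5923 and 2741 CPM in the knockout. Cytokinesis genes were almost level (1414 and 1401, 1160 and 1044 CPM). The score genes summed lower in high cells (1131 and 1300, 1117 and 1192 CPM). Aurkb, the kinase of the chromosomal passenger complex, stood at 93.9 CPM in high and 4.23 CPM in low WT cells, and at 82.8 and 9.31 CPM in the knockout, with 3.67 and 5.23 CPM in the other tumour cells. It was found in 92.1% of high and 6.20% of low WT cells and in 85.9% and 10.7% of knockout cells, and after thinning to 10,000 UMIs in 60.4% and 4.43%, and 50.6% and 6.40%. Nusap1 stood at 199 and 9.39 CPM in WT and 210 and 30.1 CPM in the knockout. Ube2c stood at 518 and 67.1 CPM, and 748 and 137 CPM. Hist1h2ap, a replication-dependent histone H2A gene, stood at 210 and 25.4 CPM, and 255 and 45.7 CPM, although reads of near-identical histone copies may be split between them. The S-phase genes without Top2a and Cdk1 summed to 3555 CPM in high and 1814 CPM in low WT cells, and to 2977 and 1759 CPM in the knockout, against 1511 and 1619 CPM in the other tumour cells.

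A second set of genes was at a like level in both. Tpx2 stood at 152 CPM in high and 134 CPM in low WT cells and at 120 and 98.2 CPM in the knockout. Cenpe stood at 109 and 121 CPM, and 94.1 and 77.5 CPM. Hmmr stood at 180 and 183 CPM, and 187 and 159 CPM. The other tumour cells of that depth held Tpx2 at 7.06 and 8.47 CPM, below both ranges.

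A further set was higher in the low cells. Ccnb2 stood at 104 CPM in high and 176 CPM in low WT cells and at 108 and 177 CPM in the knockout, where Ccnb1 went the other way (194 and 102 CPM in WT, 167 and 121 CPM in the knockout). Cdc20 stood at 108 and 193 CPM, and 110 and 158 CPM. Cdkn3 stood at 37.7 and 50.7 CPM, and 38.7 and 64.0 CPM. The widest contrast was in Hist1h2bc, a histone H2B gene, at 48.8 and 335 CPM in WT and 94.8 and 405 CPM in the knockout, against 111 and 179 CPM in the other tumour cells. Hist1h1c, a linker histone gene, stood at 26.3 and 125 CPM, and 40.7 and 108 CPM. Krt8 was also higher in the low cells, at 800 and 1216 CPM, and 856 and 1143 CPM. Cenpf differed in direction between the libraries, with a log2 ratio of low over high of 0.31 in WT and -0.29 in the knockout.

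**Figure D5:**
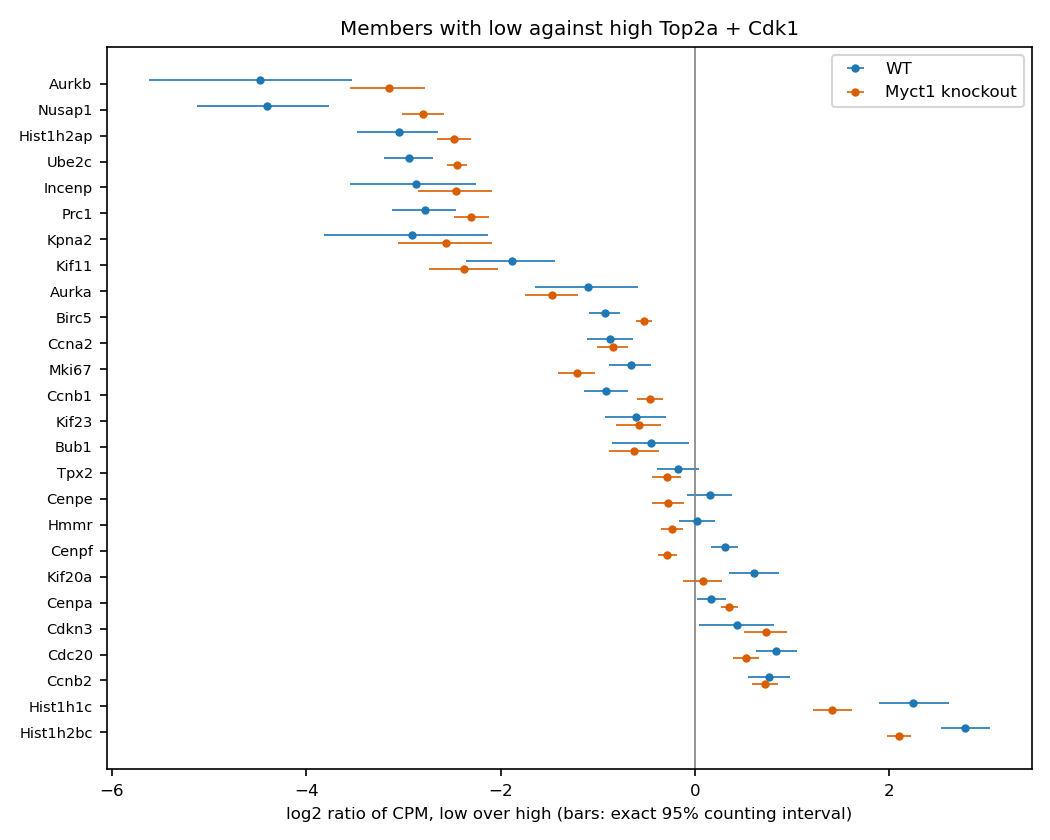
Log2 ratio of CPM in members with low over members with high Top2a and Cdk1 (x axis) with its exact 95% counting interval, for 26 genes (y axis), WT in blue and the Myct1 knockout in orange. Aurkb lies furthest left (-4.47 and -3.15), genes such as Tpx2 and Hmmr lie near 0, and Hist1h2bc lies furthest right (2.78 and 2.095).

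Over single members, Top2a went with Ube2c (r 0.61 over 322 WT and 0.68 over 693 knockout members) and against Ccnb2 (-0.21 and -0.22). Ccnb1 went with Ube2c (0.38 and 0.33), while Ccnb1 and Ccnb2 had almost no relation (-0.03 and 0.01). Cdc20 went with Hmmr (0.31 and 0.44), and Cenpa went against Cenpf (-0.24 and -0.14), to which the shared total of the score contributes by construction. Fibroblast markers summed to 125 CPM in high and 622 CPM in low WT cells and to 8.92 and 79.4 CPM in the knockout. In both libraries 1 low cell held much of this: 209 of 395 Col1a1 UMIs in WT and 154 of 169 in the knockout.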

How the data were processed

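The authors deposited 1 table of whole UMI counts per library, genes by barcodes, with no normalisation; Cell Ranger 2.1.1 and mm10 are named in the submitters' processing notes. Which annotation was used could not be told from the sources used here. The total row and sum column were dropped. Rows that repeat a symbol were kept apart.

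Counts were summed per cell class and library and expressed as counts per 1000000 counts (CPM). The 95% interval of a log2 ratio is the exact binomial one for 2 counts given their sum, and that of a share is Clopper-Pearson. Both describe counting error and leave out variation between mice. A gene was counted as higher or lower with at least 20 CPM in 1 class, a ratio of at least 1.5-fold and an interval that excluded no difference. With 1 library per genotype no p-value was computed. The members and gene lists were chosen with earlier results of these data known. Named genes were the 25 higher and 20 lower in both libraries by the smaller interval bound, the 10 in each direction with the largest genotype difference, the 6 score genes and up to 6 per list, without predicted and mitochondrial genes. Some of these genes are not reported here. Others were named after their values were seen: Myct1, Epcam, Cdh1, Vim, Col3a1, Cxcl10, Pcna and the genes of the Top2a and Cdk1 split. Barcodes with a Scrublet score above 0.3 were kept, and left out in an alternative. Thinning used 5000 UMIs, or 10,000 for the split. The comparison was run on simulated counts with known folds. These were drawn from class sums, so they hold no clumping of UMIs in single cells and no choice of cells by expression. There were 15 alternatives, 3 of them (cells of at least 5000 UMIs, members with at least 5 score UMIs, shared barcodes left out) added after seeing the data. Promoters come from RefSeq on GRCm38.p6, matched by symbol. The tools were scanpy 1.11.5, matplotlib 3.10.9, pandas 2.3.3, scipy 1.17.1, numpy 2.4.6 and Python 3.11.15.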

Additional observations from a re-analysis of the deposited data

Results flagged for a closer look

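The median log2 ratio of interferon genes, mitotic over other tumour cells, was 0.17 in WT (7 genes measured) and -0.72 in the Myct1 knockout (19 genes measured). The opposite signs rest on 2 WT genes that reached 20 CPM only in mitotic cells; over the other 5 the WT median was -0.23. The difference was not tested. For MHC class I genes the medians were 0.10 in WT (5 genes) and -0.24 in the knockout (6 genes), and for cytosolic heat shock chaperones -0.19 and 0.052 (12 genes each). Neither of these differences was tested.

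Outside the tumour gate, 3.43% of WT cells (144 of 4201, interval 2.90 to 4.02) and 8.61% of knockout cells (129 of 1498, interval 7.24 to 10.2) reached the score threshold of the mitotic tumour cells. These cells entered no comparison in the report. Of them 62 in WT and 3 in the knockout were in the fibroblast gate.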

How the results depend on the processing

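With 1 library per genotype, no library could be left out and no replicate error exists; the depth limits what can be said of cells under 5000 UMIs. The direction of all 25 named higher genes was the same in every setting that gave a value. These genes were chosen as highest by the same score, and most reached 20 CPM only in mitotic cells. Their direction was thus largely fixed by the choice. The causes of the changes below were not tested, except that a stricter level, fold or share gives fewer genes or cells by construction.

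The share of tumour cells that were members was 10.3% thinned, 4.45% for the top 5%, 18.3% for the top 20%, 10.0% within the library and 7.23% with at least 5 score UMIs in WT, and 13.2% thinned, 5.31% for the top 5% and 20.9% for the top 20% in the knockout. Genes higher in WT mitotic cells numbered 183 at 100 CPM and 270 at 2-fold, and genes lower 399 thinned, 345 under median-ratio scaling, 56 at 100 CPM and 53 at 2-fold. In the knockout, genes higher numbered 88 at 100 CPM and 159 at 2-fold, and genes lower 189 for the top 5%, 55 for the top 20%, 26 at 100 CPM and 11 at 2-fold. At 100 CPM the median log2 ratio of other G2/M genes was 1.71 in WT and 1.35 in the knockout.

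Knockout over WT in mitotic cells, 329 genes were higher thinned, 646 under median-ratio scaling, 343 with cells weighted equally, 58 at 100 CPM and 14 at 2-fold. Lower were 799 for the top 20%, 312 under median-ratio scaling, 199 at 100 CPM and 118 at 2-fold. The genotype ratio differed between mitotic and other tumour cells in 140 genes for the top 20%, 473 at a mitochondrial share of at most 5%, 45 at 100 CPM and 48 at 2-fold, against 272 as reported.

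Reversals touched 6 genes. In WT mitotic cells the largest cell held most UMIs of Ccl5, Lepr and Rgs5, 59 of 142 for Cxcl1 and 162 of 436 for Postn. For Pi16 it held 35 of 140, and 66 of 322 cells had a UMI of it. In WT mitotic over other tumour cells, Postn turned to -1.29 for the top 5%. The genotype difference turned for Ccl5 (1.11 thinned, 1.25 in the stricter tumour gate), Cxcl1 (0.51 for the top 5%, 2.21 in the stricter gate), Lepr (2.15 thinned, 2.35 for the top 5%, 0.87 at a mitochondrial share of at most 5%) and Rgs5 (2.03 in the stricter gate). For Pi16 it turned to -0.79 thinned, -2.86 within each library, -2.01 at a mitochondrial share of at most 5%, -0.75 in the stricter gate and -0.34 with cells weighted equally. Of the other values for named genes in mitotic over other tumour cells, 4903 kept their direction and side of the limits, 144 fell short of them and 73 newly passed. Named genotype differences stayed in 238 cases and fell short in 46. List medians moved in 14 and stayed in 713 cases, and list counts moved in 133 and stayed in 1427.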
